A study of Arabidopsis thaliana with 7 samples.

Results

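Leaves taken 24 h after a spray of salicylic acid (SA) were compared with leaves of untreated plants, gene by gene, in Arabidopsis thaliana of the ecotype Col-0. The comparison rested on 2 of the 7 arrays of the study, the array labelled 24 hr- SA + Silwet and the array labelled Untreated, and each difference is the SA 24 h value minus the untreated value. All plants were 3.5 weeks old, were grown in a 12 h photoperiod and gave mature leaves, and no mutant, transgene or second ecotype was used. The SA 24 h leaves had been sprayed with 0.5 mM SA in 0.02% Silwet, a surfactant that wets the leaf surface. The Silwet leaves had been sprayed with 0.02% Silwet without SA and were taken after 6 h or 12 h, 1 array each. Their values are set beside many of the genes to mark differences that the spray alone also showed. A gene printed with its SA 24 h difference alone may also have differed with Silwet. The untreated leaves were not sprayed and were harvested just before the treatments, so they shared the clock time of the 24 h leaves. The remaining 3 arrays came from leaves 3, 6 and 12 h after SA with Silwet. Each array held about 0.2 g of leaves pooled from 2 to 4 plants. Further biological replicates were not hybridised, per the labels, so every group had 1 array and no difference below carries an error or a p-value. Silwet leaves at 24 h were not analysed here, so in the SA 24 h difference the part of the spray cannot be told apart from that of SA.

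SA is a phenolic hormone of plant immunity. It is perceived by the NPR proteins, which act with TGA transcription factors on defence genes, and leaves inactivate it by attaching sugars or amino acids or by hydroxylation. It is best known in leaves for defence against biotrophic pathogens, for systemic acquired resistance and for its antagonism with jasmonate, while spraying, touch and light-dark cycles move many leaf transcripts by themselves.

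RNA was hybridised to Affymetrix ATH1 arrays, on which a group of short probes, a probe set, reads each transcript. Levels are log2 values from RMA (robust multi-array average), so 1 unit is a 2-fold difference. Of 22810 probe sets, 13513 named 1 gene, and the brightest probe set of each gene gave 13355 genes. Over the named probe sets SA 24 h correlated with untreated at 0.968 and with the other 5 arrays at 0.946 to 0.960, all pairs lying between 0.909 and 0.976. The 3′ end of the GAPDH control transcript exceeded its 5′ end by 1.19 in SA 24 h leaves and by 0.85 in untreated leaves. The same excess was 2.30 and 1.83 for actin, and 1.05 and 1.14 for ubiquitin. In Silwet 6 h and 12 h leaves it was 1.78 and 1.41 for GAPDH, 2.39 and 1.84 for actin, and 1.54 and 1.54 for ubiquitin. The 25S ribosomal RNA control probe set read 9.24 in SA 24 h leaves and 10.30 in untreated leaves. Over the 7 arrays it was lowest in Silwet 6 h leaves, 8.20, and highest in Silwet 12 h leaves, 13.43. Of the leaf markers only RCA, rubisco activase, had a named probe set. It stood at 14.11 in SA 24 h leaves, 14.04 and 14.07 in Silwet 6 h and 12 h leaves and 14.22 in untreated leaves, a bright signal in each. The root beta-glucosidase PYK10 (4.41 and 4.201 in SA 24 h and untreated leaves) and the pollen factor AGL104 (4.82 and 4.82) lay below the lower quartile of all named probe sets, 4.93. Xylem and seed markers were not analysed here. In such bulk samples fewer cells of a type and less RNA per cell cannot be told apart.

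At 24 h after SA, 472 of 13355 genes (3.53%) lay above untreated leaves by 2-fold or more, and 491 (3.68%) lay below them by as much. Every count of list members below is to be read beside these shares. Over all genes 6117 of 13355 had a difference below 0. Control arrays set against one another gave shares of the same order. Silwet 6 h minus untreated had 3.77% higher and 4.71% lower, Silwet 12 h minus untreated 4.71% and 5.05%, and Silwet 12 h minus Silwet 6 h 3.9% and 2.97%. The largest differences were mostly positive. In the positive direction 97 genes passed 2 log2 units, 26 passed 3 and 4 passed 4, while in the negative direction 74, 8 and 2 did. The median size was 1.41 among the higher genes and -1.35 among the lower ones. At the threshold, AT5G02550 lay just inside at 1.0042 and AT2G43620 just outside at 0.9991. On the other side AT1G22885 (-1.0013) was just inside and AT1G20310 (-0.9994) just outside. Of the 472 higher genes, 181 were dimmer in untreated leaves than the median of all named probe sets, 6.59, and 138 of the 491 lower genes were dimmer than that in SA 24 h leaves. RMA compresses differences of dim probe sets, so the sizes and the order of these differences are uncertain. With every value under the lower quartile of 4.93 raised to it, 13 of 102 named genes had a smaller difference, 5 of them by over 1.5-fold, and these 5 values are given beside the genes.

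The Silwet marks were divided differently among the higher and the lower calls. In both directions a call was marked by whether each Silwet array was also at least 2-fold from untreated. Over the 13513 probe sets 474 were higher (3.51%) and 497 lower (3.68%). Of the 474 higher probe sets, 38 (8.02%) were also higher in both Silwet arrays and 88 (18.6%) in 1 of them. Another 312 (65.8%) were past 2-fold in neither, and 36 (7.59%) were lower with Silwet. Of the 497 lower probe sets, 206 (41.4%) were also lower in both Silwet arrays and 92 (18.5%) in 1. For 165 (33.2%) neither Silwet array was past 2-fold, and 34 (6.84%) were higher with Silwet. The SA and Silwet differences share the untreated array, so a high or low value there enters both. For 283 of the 491 lower genes the untreated array was above all 6 other arrays, by at least 2-fold for 106. It was below all 6 for 257 of the 472 higher genes, by at least 2-fold for 30. The Silwet arrays also differ in clock time from the other pair. The clock gene GI (GIGANTEA) had a difference of 0.48 in SA 24 h leaves, 2.31 in Silwet 6 h leaves and -3.88 in Silwet 12 h leaves, each against untreated leaves. Spray and time of day cannot be told apart in the Silwet arrays.

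**Figure D1:**
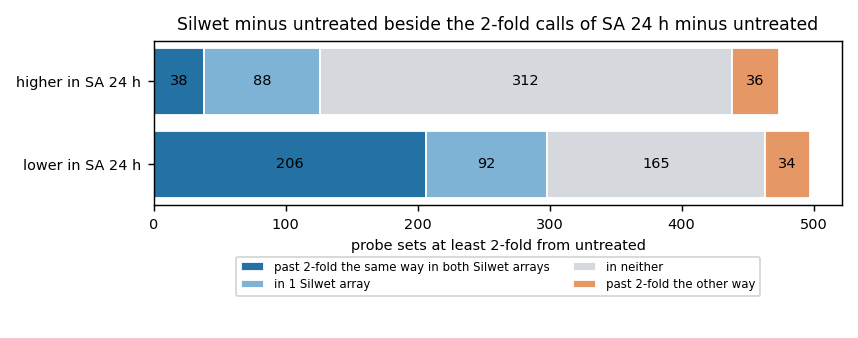
Number of probe sets at least 2-fold higher or lower in SA 24 h than in untreated leaves, divided by whether both, 1 or neither Silwet array was also past 2-fold from untreated, or was past it the other way. Of the higher probe sets 38 of 474 were shared with both Silwet arrays, and of the lower ones 206 of 497. The share of all probe sets past 2-fold in both Silwet arrays was not counted.

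A stricter count asked where SA 24 h itself lay beyond all 3 control arrays, untreated and both Silwet, by at least 2-fold. This held upward for 191 genes (1.43% of 13355) and downward for 91 (0.681%). The highest of the 4 SA arrays was 3 h for 57 of the 191 genes, 6 h for 60, 12 h for 37 and 24 h for 37. For the 91 genes on the lower side the lowest SA array was 3 h for 4, 6 h for 20, 12 h for 17 and 24 h for 50. Both sets were chosen by their 24 h value, which favours 24 h as the most extreme SA array. No such count was made for genes chosen by another SA array, so these counts do not describe a time course. Against all 6 other arrays SA 24 h was higher by 2-fold in 11 genes and lower in 15. The other 6 arrays stood above the rest in 24 to 136 genes and below the rest in 8 to 53, each counted in the same way.

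AT3G28510, which encodes an AAA-type ATPase, and UGT76B1 had the 2 largest positive differences. Its level was 10.43 in SA 24 h leaves, 4.00 and 4.19 in Silwet 6 h and 12 h leaves and 3.95 in untreated leaves, a difference of 6.48. With the floor of 4.93 it was 5.50, below the 5.64 of UGT76B1 in that setting, so the order of these 2 depends on dim values. The 3 control arrays lay close together and SA 24 h far above them. UGT76B1, whose enzyme attaches glucose to SA and to isoleucic acid, stood at 11.33 in SA 24 h leaves, 4.80 and 5.18 in the Silwet leaves and 5.68 in untreated leaves, a difference of 5.64. Its level at 3, 6 and 12 h after SA had been 13.10, 13.34 and 12.57, so the 24 h value was the lowest of the 4 SA arrays and still far above the controls. AT5G39520 went the other way in time. It was at 10.73 in SA 24 h leaves, 5.71 and 6.10 in the Silwet leaves and 5.71 in untreated leaves (difference 5.02). At 3, 6 and 12 h after SA it read 5.61, 7.04 and 10.32, so it was at control level first and above it later.

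OSM34, which encodes osmotin, a thaumatin-like antifungal protein, had the largest margin over all 6 other arrays, 4.21. It read 9.45 in SA 24 h leaves, 5.08 and 5.13 in the Silwet leaves and 4.96 in untreated leaves, a difference of 4.49. At 3, 6 and 12 h after SA it read 5.16, 5.24 and 5.09. The other 6 arrays thus lay within a narrow band, and 1 array alone carries this difference. The chitinase gene CHI, whose product cleaves fungal chitin, was at 10.76 in SA 24 h leaves, 7.25 and 7.37 in the Silwet leaves and 7.19 in untreated leaves (difference 3.57). OSM34 and CHI were the 2 measured members of 17 in the list of PR proteins, chitinases and osmotins, and both were beyond all 3 controls.

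**Figure D2:**
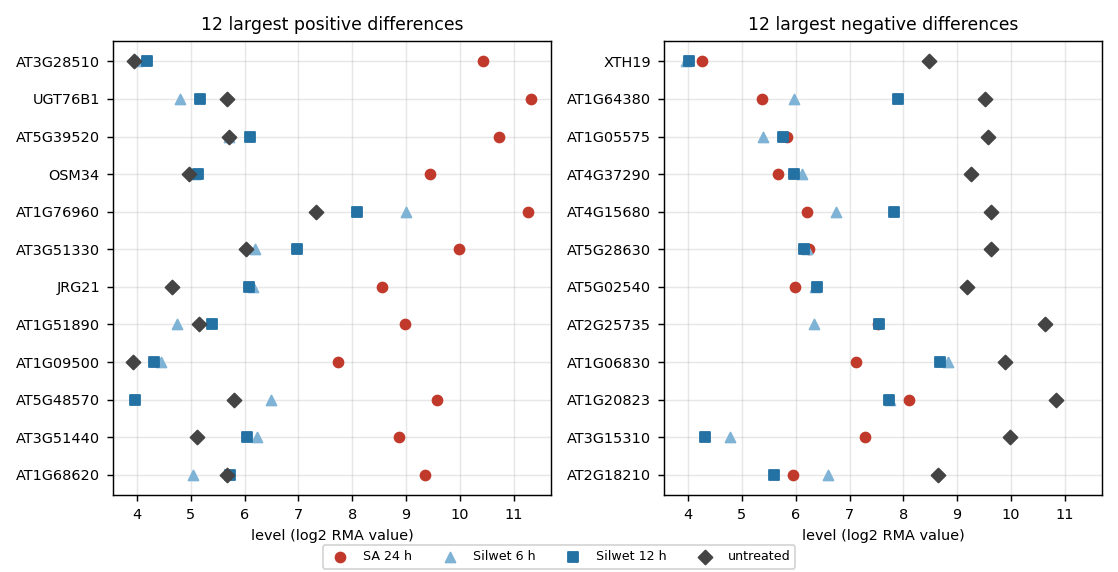
Levels (log2 RMA value, x axis) of the 12 genes with the largest positive (left) and negative (right) SA 24 h minus untreated difference, with 1 point per array for SA 24 h, Silwet 6 h, Silwet 12 h and untreated leaves. On the left SA 24 h lies above all 3 control arrays for each gene, while on the right the untreated array lies above SA 24 h and both Silwet arrays.

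The remaining genes among the 12 largest positive differences ranged from 3.94 to 3.67. All 12 lay beyond the 3 control arrays by more than 2-fold, 8 were unmarked in both Silwet arrays, 2 were marked in 1, 1 was marked in both and 1, AT5G48570, was lower with Silwet at 12 h. AT1G76960 was at 11.27 in SA 24 h leaves and 7.32 in untreated leaves, but also at 8.997 in Silwet 6 h leaves. The gene marked in both was JRG21, a 2-oxoglutarate oxygenase that hydroxylates jasmonate. Its levels were 8.56 in SA 24 h leaves, 6.16 and 6.08 in the Silwet leaves and 4.66 in untreated leaves, so the Silwet leaves held an intermediate level. AT3G51330, of the aspartyl protease family, differed by 3.94. AT1G09500, a relative of cinnamyl alcohol dehydrogenase, differed by 3.81, or by 2.80 with the floor of 4.93, which its untreated level of 3.92 did not reach. AT1G68620, a carboxylesterase of the alpha/beta hydrolase fold, read 9.35 in SA 24 h leaves and 5.68 in untreated leaves. Its levels of 6.69 and 6.83 at 3 and 6 h after SA were below those of 9.52 at 12 h and 9.35 at 24 h. By margin over the nearest control, AT4G00700, a C2-domain protein gene, also ranked among the first 12. It read 10.11 in SA 24 h leaves, 5.60 and 6.69 in the Silwet leaves and 6.75 in untreated leaves.

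Genes that handle SA or serve as its markers were few among the named probe sets. Of the SA conjugation and turnover list, 6 of 15 were measured, 1 was at least 2-fold higher (UGT76B1) and 0 were lower, with a median of 0.34 against 0.00 over all genes. UGT74F1, which makes SA glucosides, differed by 0.25, and the SA methyltransferase gene BSMT1 by 0.44. Both were therefore within 2-fold of untreated leaves. GRX480, a glutaredoxin that binds TGA factors and is a marker of SA signalling, was at 9.55 in SA 24 h leaves, 5.82 and 6.63 in the Silwet leaves and 7.03 in untreated leaves (difference 2.52). Its level at 3, 6 and 12 h after SA was 12.14, 11.60 and 10.06, so the 24 h array was again the lowest of the 4 SA arrays. The second measured marker, WRKY53, differed from untreated leaves by -2.25 and is described with the spray-marked genes. SAG101, a partner of EDS1 in immune signalling, differed by 0.68.

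Transcripts of receptor kinase and secreted protease genes were higher in part of each family. A tandem group of leucine-rich repeat kinase genes on chromosome 1 had 10 measured members. Of these 4 were at least 2-fold higher and 0 lower (3.53% and 3.68% of all genes), with a median of 0.25. AT1G51890 read 8.98 in SA 24 h leaves, 4.74 and 5.39 in the Silwet leaves and 5.16 in untreated leaves. AT1G51860 read 8.37, 5.26, 5.04 and 4.92 in the same order, and its 24 h level exceeded those of 6.21, 6.31 and 6.92 at 3, 6 and 12 h after SA. The other members past 2-fold were AT1G51850 (1.94, but 0.92 and no longer past 2-fold with the floor of 4.93) and AT1G51790 (1.58), and all 4 lay beyond the 3 control arrays. The remaining 6 had differences from -0.46 to 0.35. Of 7 subtilases, serine proteases of the cell wall space, SBT3.3 was at 8.42 in SA 24 h leaves, 5.12 and 5.60 in the Silwet leaves and 5.71 in untreated leaves. SBT3.5 was at 9.26, 7.06, 7.03 and 6.98 in the same order. The other 5 subtilases differed by -0.29 to 0.06. Of 6 strictosidine synthase-like genes 2 were at least 2-fold higher, AT3G51440 (3.75) and its neighbour AT3G51450 (3.10), and 0 were lower (median 0.74). Both were also past 2-fold in the Silwet 6 h array (1.11 and 3.79). There AT3G51450 stood at 10.735, above its 10.04 in SA 24 h leaves. This list and that of the tandem kinases were drawn up after the values were seen.

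Transcripts of several heat stress genes were higher. In a list of heat shock chaperones 3 of 5 measured genes were at least 2-fold higher and 0 lower (3.53% and 3.68% of all genes), with a median of 2.34. A second list of heat stress genes, drawn up after the values were seen, shared 4 of those 5 and left out Hop1 (0.20). Of its 12 measured genes 6 were at least 2-fold higher and 0 lower, with a median of 1.26, and 4 of the 6 lay beyond all 3 controls. Over the same genes the median was 0.07 in Silwet 6 h and -0.07 in Silwet 12 h leaves. AT5G48570 (ROF2), an immunophilin induced by heat, was at 9.58 in SA 24 h leaves, 6.49 and 3.98 in Silwet 6 h and 12 h leaves and 5.80 in untreated leaves. Its level at 3, 6 and 12 h after SA was 10.42, 10.35 and 4.86, so it was high at 3 and 6 h, low at 12 h and high again at 24 h. AT5G51440, a mitochondrial small heat shock protein, followed a like course with 9.92, 8.98 and 6.09 before 8.05 at 24 h, against 4.74 in untreated leaves. The DnaJ gene AT2G20560 differed by 2.97 and the small heat shock gene AT2G29500 by 1.58, and neither was past 2-fold in a Silwet array. The Hsp70 co-chaperone gene Fes1A was at 10.63 in SA 24 h leaves and 7.54 in untreated leaves, but also at 10.02 in Silwet 12 h leaves. Hop3, which couples Hsp70 to Hsp90, was at 6.42 in SA 24 h leaves, below its 7.91 in Silwet 12 h leaves and above 4.08 in untreated leaves (difference 2.34, or 1.48 with the floor of 4.93). Of 4 genes for folding in the endoplasmic reticulum, 1 was at least 2-fold higher. That was ATERDJ3B, a luminal DnaJ protein, at 11.38 in SA 24 h leaves, 10.67 and 9.39 in the Silwet leaves and 9.31 in untreated leaves.

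**Figure D3:**
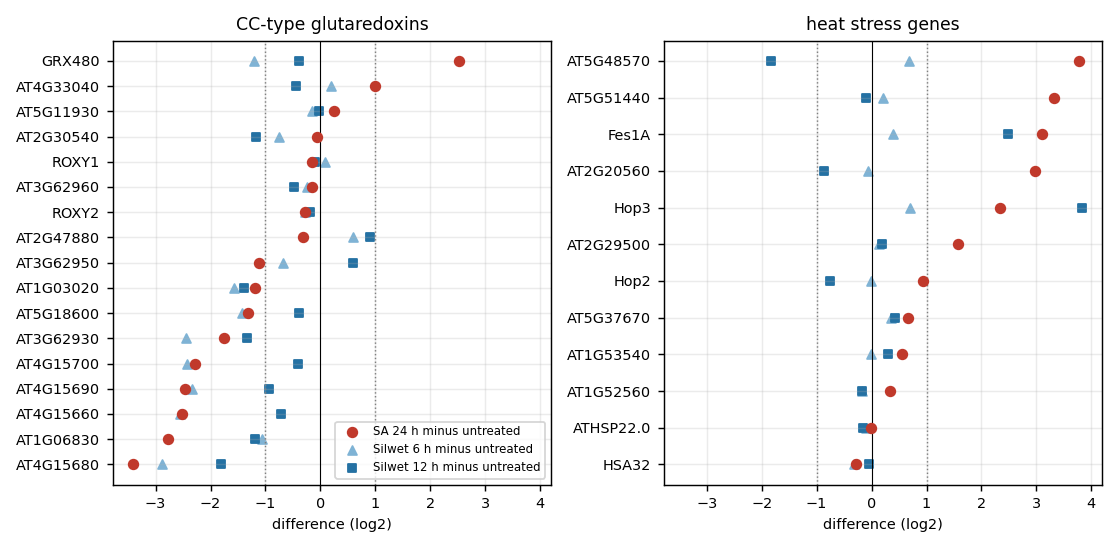
SA 24 h minus untreated difference (log2) of each measured member of the CC-type glutaredoxin family and of the heat stress genes, with the 2 Silwet differences beside it. Both lists were drawn up after the values were seen. Of 17 glutaredoxin genes 9 were at least 2-fold lower, 4 of them also lower in both Silwet arrays, and of 12 heat stress genes 6 were at least 2-fold higher.

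Few genes had their most extreme level of all 7 arrays at 24 h by a 2-fold margin. On the higher side, OSM34, JRG21 and AT1G51860 were among the 11. CHIL, a chalcone isomerase-like protein of flavonoid synthesis, was at 9.95 in SA 24 h leaves, 6.66 and 6.38 in the Silwet leaves and 8.14 in untreated leaves. At 3, 6 and 12 h after SA it read 7.33, 6.28 and 6.20, below the untreated level. AT4G33150, the bifunctional enzyme that starts lysine breakdown, was at 8.82 in SA 24 h leaves and 5.89 in untreated leaves, and at 5.46, 5.80 and 7.13 at 3, 6 and 12 h after SA. PPDK, pyruvate orthophosphate dikinase, was at 12.72 in SA 24 h leaves, 8.84 and 9.92 in the Silwet leaves and 10.54 in untreated leaves. These 3 genes thus reached at 24 h a level that no earlier SA array had. The others were AT1G06000, SAL2 (2.21), AT2G44240 (2.24), the transporter-like gene AT2G40460 (1.34) and the methionine sulfoxide reductase gene MSRB9 (2.14), the last named after its values were seen.

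**Figure D4:**
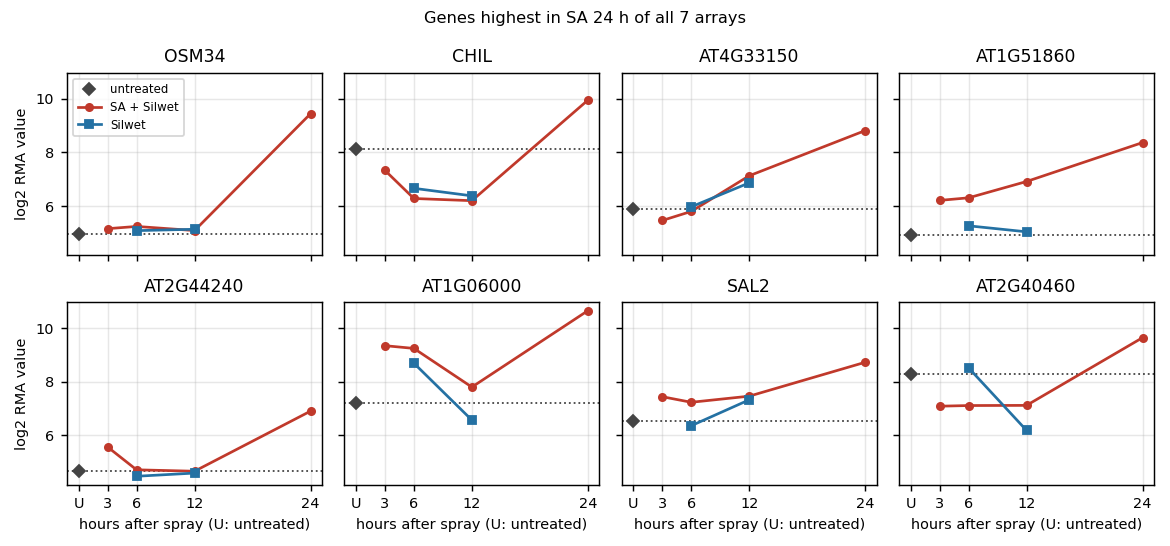
Level (log2 RMA value) of 8 of the 11 genes that were highest in SA 24 h of all 7 arrays by at least 2-fold, plotted against hours after treatment for the 4 SA arrays, with the 2 Silwet arrays and the untreated array (time 0). OSM34 stayed between 4.96 and 5.24 until 12 h after SA and read 9.45 at 24 h.

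Flavonol and amino acid breakdown lists held several of these late genes. Both lists were drawn up after the values were seen, so this is no separate result. Of 5 measured flavonol genes 3 were at least 2-fold higher and 0 lower (3.53% and 3.68% of all genes). AT1G06000 (UGT89C1), a flavonol 7-O-rhamnosyltransferase, was at 10.65 in SA 24 h leaves, 8.69 and 6.57 in Silwet 6 h and 12 h leaves and 7.22 in untreated leaves. UGT78D1, the flavonol 3-O-rhamnosyltransferase, was at 10.16, 9.37, 8.30 and 7.88 in the same order. Both also exceeded untreated leaves by over 2-fold in the Silwet 6 h array. UGT78D2, the 3-O-glucosyltransferase, was near its untreated level (10.85 in SA 24 h leaves against 11.28), but 8.21 and 7.81 in the Silwet leaves. Of 7 genes in the amino acid breakdown list 3 were at least 2-fold higher and 0 lower (median 0.96). They were AT4G33150, PPDK, whose enzyme acts on pyruvate, and IVD of leucine breakdown. IVD was at 9.39 in SA 24 h leaves, 7.81 and 8.96 in the Silwet leaves and 7.51 in untreated leaves. In the phenylpropanoid list 2 of 5 members were at least 2-fold higher. CCOAMT, a caffeoyl-CoA methyltransferase gene, was at 7.44 in SA 24 h leaves, 5.18 and 5.49 in the Silwet leaves and 4.92 in untreated leaves. AT3G13610, the feruloyl-CoA hydroxylase of coumarin synthesis, differed by 2.46. Both lay beyond all 3 control arrays.

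The 12 largest negative differences all came with the spray mark. Each of these genes was also at least 2-fold lower than untreated in both Silwet arrays, and for 7 of the 12 the untreated array was above all 6 other arrays by at least 2-fold. XTH19, a xyloglucan endotransglucosylase that remodels cell walls, was at 4.26 in SA 24 h leaves, 3.96 and 4.01 in the Silwet leaves and 8.47 in untreated leaves (difference -4.21, or -3.54 with the floor of 4.93). Only the untreated array was bright for this gene. AT1G64380, an AP2/ERF transcription factor gene, was at 5.37, 5.97, 7.91 and 9.52 in the same order. AT1G05575 was at 5.85 in SA 24 h leaves, 5.39 and 5.76 in the Silwet leaves and 9.57 in untreated leaves, but at 11.37 3 h after SA. At 6 and 12 h after SA it read 9.28 and 7.42, so its level fell from 3 h to 24 h over the 4 SA arrays. In both Silwet arrays it was low. The rest ranged from -3.60 (AT4G37290) to -2.70 (AT2G18210) and included the RING-H2 gene AT1G20823 (-2.73) and the dehydrogenase-like gene AT5G02540 (-3.19). AT3G15310 differed by -2.70 from untreated leaves, yet its 7.28 in SA 24 h leaves exceeded 4.78 and 4.31 in the Silwet leaves. AT1G06830, a CC-type glutaredoxin, was the 1 gene of the 12 that lay beyond all 3 controls. It read 7.12 in SA 24 h leaves, 8.83 and 8.69 in the Silwet leaves and 9.88 in untreated leaves.

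Several genes of touch, wounding and rapid signalling stood between Silwet and untreated leaves. Of 5 measured touch and wound genes 2 were at least 2-fold lower in SA 24 h than in untreated leaves, both with the spray mark. Against untreated leaves the list median was -0.58 in SA 24 h leaves, -2.49 in Silwet 6 h leaves and -2.44 in Silwet 12 h leaves, and against the Silwet mean it was 2.16 in SA 24 h leaves. STZ, a zinc finger repressor of stress responses, was at 9.90 in SA 24 h leaves, 7.37 and 7.84 in the Silwet leaves and 11.92 in untreated leaves. CML38, a calmodulin-like gene, was at 7.54, 5.44, 5.33 and 8.59 in the same order. Of 7 measured WRKY transcription factor genes 3 were at least 2-fold lower and 0 higher, all 3 with the spray mark. WRKY53 was at 9.60 in SA 24 h leaves, 5.42 and 8.17 in the Silwet leaves and 11.85 in untreated leaves. The others were WRKY22 (-2.02) and WRKY6 (-1.36). WRKY22 was at 6.560 in SA 24 h leaves, 5.194 and 6.565 in Silwet 6 h and 12 h leaves and 8.586 in untreated leaves. Its SA 24 h level thus exceeded that of Silwet 6 h leaves alone. The trichome patterning gene TRY, the 1 measured trichome marker, was at 7.58 in SA 24 h leaves, 5.95 and 5.82 in the Silwet leaves and 8.89 in untreated leaves. The direction of these genes depended on the control: set against the mean of the Silwet arrays, STZ (2.30), CML38 (2.16), WRKY53 (2.80), WRKY22 (0.68), WRKY6 (1.00) and TRY (1.698) were all higher in SA 24 h leaves. Of 8 calmodulin-like genes 2 were at least 2-fold lower, both with the spray mark, and 1, CML41 at 2.34, was higher. CML41 was also past 2-fold in the Silwet 12 h array (1.03).

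CC-type glutaredoxins are small redox proteins found in land plants. A short list of them had 3 measured genes, of which 1, GRX480, was at least 2-fold higher and 0 were lower, with a median of -0.15. The whole family was added after the values were seen. Of its 17 measured genes 9 were at least 2-fold lower and 1, GRX480, was higher (3.68% and 3.53% of all genes). The family had a median of -1.11 and 14 genes below 0, against 6117 of 13355 over all genes. The median in the Silwet arrays was -1.06 at 6 h and -0.45 at 12 h, and against the Silwet mean it was -0.15 in SA 24 h leaves. Neighbours on chromosome 4 held 4 of its 5 lowest differences, the fifth being AT1G06830. AT4G15680 was at 6.21 in SA 24 h leaves, 6.75 and 7.83 in Silwet 6 h and 12 h leaves and 9.63 in untreated leaves. AT4G15660 (-2.51), AT4G15690 (-2.47) and AT4G15700 (-2.29) were lower as well, and all 3 carried the mark in the Silwet 6 h array alone. These neighbours are close in sequence, so a probe set of 1 may also read another.

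Other genes were lower at 24 h than in all 3 controls and did not carry the spray mark. Ranked by margin below the nearest control, 7 of the first 12 were at least 2-fold higher with Silwet in 1 or both arrays, and the other 5 were unmarked. AT3G05730, a defensin-like gene, was at 6.90 in SA 24 h leaves, 9.19 and 9.01 in the Silwet leaves and 9.44 in untreated leaves. AT3G59350, a Pti1-like kinase gene, was at 6.81, 9.30, 11.21 and 9.07 in the same order. CHL, the chloroplast lipocalin, was at 8.03 in SA 24 h leaves, 11.79 and 11.36 in the Silwet leaves and 9.83 in untreated leaves. For these 3 genes SA 24 h was the lowest of the 4 arrays and the controls lay well above it. The lectin gene AT3G16530 was at 9.22 in SA 24 h leaves and 11.20 in untreated leaves, but at 13.29, 13.14 and 12.29 at 3, 6 and 12 h after SA. Its 24 h level was thus the lowest of all 7 arrays after the highest at 3 h. DPE1, the disproportionating enzyme of starch breakdown, was not among the 12 by this margin but was lower by 2-fold than all 6 other arrays, at 5.53 in SA 24 h leaves, 10.39 and 9.68 in the Silwet leaves and 6.90 in untreated leaves. The first 12 also held AT1G75190 (-2.02), AT3G60290 (-2.35), the bZIP factor gene BZIP61 (-2.58), AT5G62720 (-1.86) and the pectate lyase gene AT3G07010 (-2.62), with PDF1.2, PDF1.2b and TUB5 described next. Against all 6 other arrays, AT1G76590 of the PLATZ factors (-1.67), AT3G15630 (-1.21) and UGT73B1 (-1.85) were also lower by 2-fold.

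Among the genes of the jasmonate and ethylene branch, 2 defensin genes belonged to the first 12. PDF1.2 was at 4.45 in SA 24 h leaves, 9.09 and 10.41 in Silwet 6 h and 12 h leaves and 6.24 in untreated leaves. PDF1.2b was at 6.49, 11.12, 11.78 and 8.64 in the same order. Both were lowest in SA 24 h leaves and highest with Silwet. The pair is near-identical in sequence, so their probe sets may read each other's transcripts. The third measured defensin gene, LCR67, was dim and flat, at 4.08 in SA 24 h leaves, 4.04 and 4.05 in the Silwet leaves and 4.11 in untreated leaves. The thionin genes THI2.1 (-0.07) and THI2.2 (-0.46) were within 2-fold of untreated leaves.

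Part of the tubulin and wall-loosening genes were lower. Of 7 measured tubulin genes, which build microtubules, 4 were at least 2-fold lower and 0 higher (3.68% and 3.53% of all genes). Their median was -1.05 against 0.10 and 0.02 in the Silwet 6 h and 12 h arrays. TUB5 was at 8.61 in SA 24 h leaves, 11.62 and 11.44 in the Silwet leaves and 10.47 in untreated leaves. TUB7 (-1.59), TUB1 (-1.54) and TUB6 (-1.05) were the others, and none of the 4 was lower by 2-fold with Silwet. Of 27 wall-loosening genes (expansins and xyloglucan enzymes), 7 were at least 2-fold lower and 0 higher (3.68% and 3.53% of all genes). Below 0 lay 23 of them, against 6117 of 13355 over all genes. Their median was -0.35 against -0.32 and -0.25 in the Silwet arrays. Against the Silwet mean the median was -0.01. XTH19 and XTH18 (-2.25) carried the mark of both Silwet arrays. EXLA1 was at 5.85 in SA 24 h leaves, 7.40 and 7.20 in the Silwet leaves and 7.94 in untreated leaves, and EXPA16 was at 5.75, 7.61, 8.70 and 7.41. These were the 2 wall-loosening genes beyond all 3 controls. Of 4 pectin genes the methylesterase gene ATPMEPCRB (-2.46) was lower with the mark of both Silwet arrays. PME61 (1.71) was higher, also with the mark of both Silwet arrays (1.635 at 6 h and 1.254 at 12 h), and lay 0.26 above the Silwet mean. PMEPCRF (1.41) was higher, but lower with Silwet at 6 h (-1.19). Against the Silwet mean, ATPMEPCRB was higher in SA 24 h leaves, by 2.25.

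Chloroplast-encoded genes lay lower as a group by a small amount. Of 69 measured, 13 were at least 2-fold lower and 0 higher (3.68% and 3.53% of all genes). Below 0 lay 66, against 6117 of 13355 over all genes, and the median was -0.50. The Silwet medians were close to it, -0.38 at 6 h and -0.42 at 12 h, 7 of the 13 carried the mark of both Silwet arrays, and 0 lay beyond all 3 controls. The lowest were ndhH (-2.06), a subunit of the NDH complex, and atpI (-2.05), a subunit of ATP synthase. Of 9 nuclear genes of the light reactions 0 were past 2-fold, with a median of -0.20. STOMAGEN, a secreted peptide that promotes stomata, was at 8.38 in SA 24 h leaves, 9.34 and 10.40 in the Silwet leaves and 9.72 in untreated leaves. At 3, 6 and 12 h after SA it had been 6.12, 4.99 and 6.40, lower than at 24 h.

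**Figure D5:**
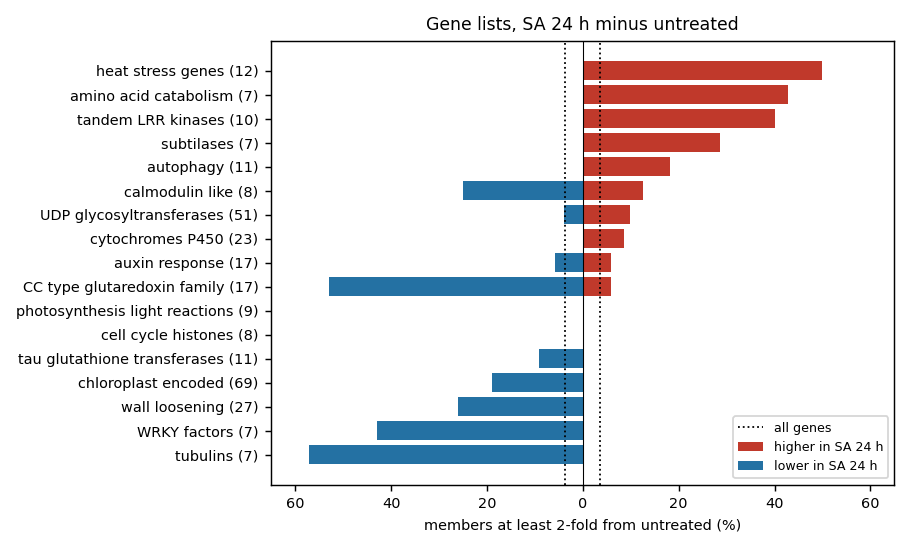
Share of the measured members of each gene list (number in parentheses) that were at least 2-fold higher (right) or lower (left) in SA 24 h than in untreated leaves, with the shares over all genes, 3.53% and 3.68%, as dotted lines. Lists of 7 or more members are drawn, and 6 of 12 heat stress genes were higher while 4 of 7 tubulin genes were lower. The CC-type glutaredoxin family, heat stress, tandem kinase and amino acid breakdown lists were drawn up after the values were seen.

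In the larger enzyme families most members were within 2-fold of untreated leaves. Of 51 UDP-glycosyltransferase genes 5 were at least 2-fold higher and 2 lower (median 0.13), beside 3.53% and 3.68% of all genes. Besides UGT76B1 and UGT78D1, the higher ones were UGT87A2 (2.05), UGT73D1 (1.85) and UGT74B1 (1.305), an enzyme of glucosinolate synthesis, and the lower ones were UGT73B1 and UGT76C2 (-1.62), a cytokinin glucosyltransferase. UGT74B1 was also past 2-fold in the Silwet 6 h array (1.37). Of 23 cytochrome P450 genes 2 were higher, CYP71B23 (2.33) and CYP71B28 (1.02, but 0.98 with median centring), and 0 lower. Of 11 tau glutathione transferase genes 0 were higher and 1, GSTU18 at -1.06 (-0.95 with renewed quantile normalisation), was lower. GSTU18 also differed by -1.08 in the Silwet 6 h array. Of 4 detoxification genes 1, UGT73B1, was lower. Of 11 autophagy genes 2 were higher, ATG8B (1.54) and APG8A (1.26), and 0 lower (median 0.19). ATG8B was also past 2-fold in the Silwet 12 h array (1.03). Of 17 auxin genes 1 was higher and 1 lower. GH3.3, which conjugates auxin to amino acids, was at 8.22 in SA 24 h leaves, 4.73 and 4.90 in the Silwet leaves and 5.52 in untreated leaves. GH3.17 differed by -1.14 and was also lower by 2-fold in the Silwet 6 h and 12 h arrays (-1.25 and -1.09). GH3.3 thus lay above all 3 controls. The autophagy genes past 2-fold, which encode ATG8 proteins of the autophagosome membrane, were below their 12 h level after SA. Of 4 abscisic acid and cold genes 1 was lower, COR15B, at 8.80 in SA 24 h leaves, 13.52 and 10.10 in the Silwet leaves and 10.37 in untreated leaves. Of 3 senescence genes 1 was lower, which was WRKY6. Of 8 histone and cell cycle genes and of 2 reference genes (GAPC2 0.22, PEX4 -0.27) 0 were past 2-fold. Of the 16 lists with 1 or 2 measured genes, 3 held a gene past 2-fold: the SA markers, the PR proteins with osmotin, and the trichome marker. The phloem transporter gene SWEET11 differed by 0.35.

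Where 1 probe set of a gene was past 2-fold, the others mostly had the same sign but often were not past it. Of 147 genes read by several probe sets, 13 had at least 1 past 2-fold, all probe sets were past it in the same direction for 6, and 0 had probe sets past it in both directions. In 12 of the 13 all probe sets had the same sign.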

How the data were processed

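Mature leaves were measured on 7 Affymetrix ATH1 arrays, 1 per condition and time. The authors deposited log2 values. RMA and affy made them, as the submitters' processing notes record without versions. RMA subtracts background, forces all arrays onto 1 distribution and reduces the probes of a set to 1 value, so it would hide a change of most transcripts in 1 direction. The array medians of the named probe sets lay within 0.0437 of each other. Arrays have no read depth, and their number limits the precision.

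Gene names came from the platform annotation, with symbols updated through the gene number for 13436 of the 13513 probe sets (RefSeq, TAIR10.1). Of 22810 probe sets, 503 named several genes and 8794 none, 64 array controls included. PR1, PR2, PR5, NIMIN1, WRKY70 and ICS1 are not analysed here, since no probe set names them. Differences, 2-fold calls (1 log2 unit) and list counts were computed with Python 3.11.15, NumPy 2.4.6 and pandas 2.3.3, and the calls were tested on simulated data. No p-value was computed.

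The comparison, its genes and its gene lists were chosen with earlier results of these data known. Of 50 lists, 9 had no measured gene, 16 had 1 or 2 and 25 had at least 3, together 311 of 2085 genes, while 58 entries matched no gene. A further 7 lists were added after the values were seen: the CC-type glutaredoxin family, heat stress, flavonol, strictosidine synthase-like, tandem kinase, starch breakdown and amino acid breakdown genes. A chitinase symbol, cyclophilins, histone deacetylases and 1 other gene that had matched the wrong list were removed. Named genes were the 12 largest differences each way, the 12 largest margins beyond the 3 control arrays each way, the 8 largest margins beyond the 6 other arrays each way, up to 5 called genes per list, and a few markers. Further list members and MSRB9, outside this rule, were named after their values were seen. Promoter sequences were not used here.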

Additional observations from a re-analysis of the deposited data

How the results depend on the processing

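No paired analysis was possible because every group had 1 array and the labels number no replicates. The 8 counts of probe sets (calls, spray marks and probe sets beyond all controls, each way) stayed within 1.5 times with 1 probe set per gene, without dim probe sets, with a floor, with median centring and with renewed quantile normalisation, and both call counts did so with either mean of controls. They moved with the threshold and with unnamed probe sets. At 1.5 log2 units, 208 probe sets were higher and 194 lower. Of these 11 and 88 were marked in both Silwet arrays, 172 and 59 in neither, and 96 higher and 30 lower ones lay beyond all 3 controls at that margin. At 2 log2 units, 97 were higher and 75 lower, with 5 and 36 marked in both Silwet arrays, 84 and 24 in neither, and 53 and 5 beyond all controls. Over all probe sets other than array controls, named or not, 1013 were higher and 946 lower. Of these 105 and 378 were marked in both, 633 and 292 in neither, and 443 and 189 lay beyond all controls.

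Of 102 named genes, 18 changed direction against the mean of both Silwet arrays, all from lower to higher in SA 24 h leaves. They were AT3G15310 (2.74), WRKY53 (2.80), STZ (2.30), ATPMEPCRB (2.25), CML38 (2.16), TRY (1.698), WRKY6 (0.997), WRKY22 (0.68), AT2G25735 (0.58), AT1G20823 (0.36), CML23 (0.34), XTH19 (0.27), AT1G05575 (0.27), XTH18 (0.21), rpoB (0.16), AT5G28630 (0.063), rps16 (0.0401) and GH3.17 (0.0283). Against the mean of all 3 control arrays 7 did: WRKY53 (1.11), CML38 (1.09), AT3G15310 (0.92), STZ (0.86), TRY (0.70), ATPMEPCRB (0.68) and WRKY6 (0.21). Another 18 named genes kept their direction against the Silwet mean but were no longer past 2-fold: AT4G37290 (-0.38), AT5G02540 (-0.39), AT2G18210 (-0.14), AT4G15660 (-0.88), AT4G15690 (-0.84), TUB7 (-0.98), TUB6 (-0.997), EXPA4 (-0.98), GSTU18 (-0.30), ndhH (-0.45), atpI (-0.42), psbT (-0.12), ATG8B (0.98), APG8A (0.83), AT3G51450 (0.80), PME61 (0.26), CYP71B28 (0.0703) and Hop3 (0.0706). Against all 3 controls 17 did so. The cause was not tested.

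List medians also moved. Without dim probe sets, a filter that keeps a dim gene where 1 of the 2 arrays is bright, the median was 2.598 over 2 of 6 SA conjugation genes, 2.28 over 3 of 7 subtilases, 2.52 over 4 of 10 tandem kinases, 3.03 over 6 of 12 heat stress genes, 2.46 over 3 of 5 phenylpropanoid genes, -1.43 over 10 of 27 wall-loosening genes and -0.61 over 6 of 7 WRKY genes. A gene dim in 1 of the 2 arrays thus stayed only where the other was bright, so this filter favours large differences. Medians under it therefore add no support for a list. Against the Silwet mean the median was 0.92 for heat stress, 1.32 for heat shock chaperones, 0.68 for WRKY, 0.67 for calmodulin-like and -1.90 for abscisic acid and cold genes. With the floor the heat shock chaperone median was 1.48. Leaving out an array of either side leaves no difference, so no such value exists.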

Other observations

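Starch breakdown, a list drawn up after the values were seen, had 2 measured genes, 1 of them at least 2-fold lower in SA 24 h leaves than in untreated leaves. In the Silwet 6 h array the median of the pair was 3.15 above untreated, against -0.82 in SA 24 h leaves.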
